A study of Mus musculus with 9 samples.

Results

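The skeletal muscle genes described here are 40 genes whose products build or run the contractile apparatus of skeletal muscle fibres, measured in mouse melanoma tumours. They were chosen by name, and 36 of the 40 had a probe that was matched to them (33 by accession, 2 by a synonym and 1 by symbol) and stood well above background in the tumour channel on at least 3 of 9 arrays. No probe was matched in these ways to Myh1, Neb, Trdn or Cacna1s, which are not analysed here as members. Where a gene had several such probes, the one with the highest mean signal over both channels represented it, and the whole array held 26871 kept probes of 41174.

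The tumours were grown from 3 variants of B16-F10, a melanoma cell line of the mouse. The variants differed in histamine, which cells make from histidine with the enzyme L-histidine decarboxylase (HDC). Per the labels, histamine output was reduced in the HDC-A variant, left as it was in HDC-M, and raised in HDC-S. Each variant gave 6 tumours, whose RNA was pooled in random pairs, so each group had 3 pools of 2 tumours, and each group rests on 1 line variant. The labels used here do not give the strain, age or sex of the host mice, the inoculation site or the time of tumour growth. Each pool was labelled with Cy5 and read on a 2-colour array beside the same Cy3-labelled RNA of cultured HDC-M cells. The value of a gene is therefore log2(Cy5/Cy3), its tumour level relative to cultured melanoma cells, and p-values measure the spread between pools.

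Skeletal muscle contracts when calcium released from the sarcoplasmic reticulum binds troponin on the thin filament and lets myosin heads of the thick filament pull on actin. Fast fibres and slow fibres carry different forms of myosin, troponin and the calcium pump. Mouse limb and skin-associated muscle is made mostly of fast fibres, and slow forms are shared in part with heart muscle. Sarcomeres are not a feature of melanocytes, and the source of this RNA in the tumours was not tested. In bulk tumour RNA, fewer muscle cells and less RNA per cell cannot be told apart.

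On each array 58.0% to 69.7% of the spots were well above background in Cy5. The modified gene itself, Hdc, averaged 0.24 ± 0.16 for the HDC-A pools, 0.38 ± 0.28 for HDC-M and 0.46 ± 0.14 for HDC-S (SD, n = 3), and its groups overlapped in each comparison. The file headers place the arrays on 2 scan days, with replicates 1 and 2 of every group on the first and replicate 3 of every group on the second. HDC-A replicate 2 and HDC-S replicate 3 stood apart for the muscle genes: the former was the highest array for 25 of the 36 members and the latter the lowest for 19.

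The cultured reference held little RNA of these genes. For 28 of the 36 members the mean Cy3 signal was under 1.2 times the median of the negative control spots, and over all members that ratio ran from 0.87 to 4.74, with muscle enolase Eno3 at the top. A log2 ratio then measures the tumour signal against a floor and understates the true ratio to cultured cells. In the tumour channel some fast genes reached far above the negative controls, with Myh4 at up to 171 times their median, Tnni2 at up to 91.9 times and Tnnc2 at up to 73.3 times. Most slow members stayed close to that floor: Tnnc1 reached at most 1.1 times the negative control median, Myl2 1.19, Myoz2 1.22, Tnni1 1.24, Myh7 1.42 and Mybpc1 1.57 times. The slow gene Tnnt1 lay higher, at 1.79 to 2.35 times, and was well above background on all 9 arrays. The tumour channel was well above background on all 9 arrays for 27 members, and 9 members were dim on some arrays. Casq1 and Myl2 passed on 3 arrays each, Myod1 on 4, Myh7 on 5, Cacng1, Mybpc1, Myoz2 and Tnnc1 on 6 and Tnni1 on 7. Myl2 was not well above background on any HDC-S array, so no single difference of it with HDC-S is given, although the counts and medians over the members include it.

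The mean of the fast genes lay above that of the slow genes on every array, although single genes of the lists overlapped: fast Atp2a1 and Casq1 read near 0 throughout. Of the fast fibre list, 13 of 14 genes were measured (all but Myh1), and of the slow fibre list 7 of 7. Over the 12 fast genes with a value on every array, the mean log2 ratio was 2.16, 2.94 and 1.45 in HDC-A replicates 1 to 3, 1.82, 1.21 and 1.35 in HDC-M and 1.20, 2.13 and 0.57 in HDC-S. HDC-A replicate 2 was highest and HDC-S replicate 3 lowest, and HDC-S replicate 2 lay above every HDC-M pool, so the groups overlapped. The mean of the slow genes was 0.10, 0.14 and 0.10 in HDC-A, 0.05, 0.11 and -0.01 in HDC-M and 0.04, 0.10 and 0.06 in HDC-S, near 0 throughout.

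**Figure D1:**
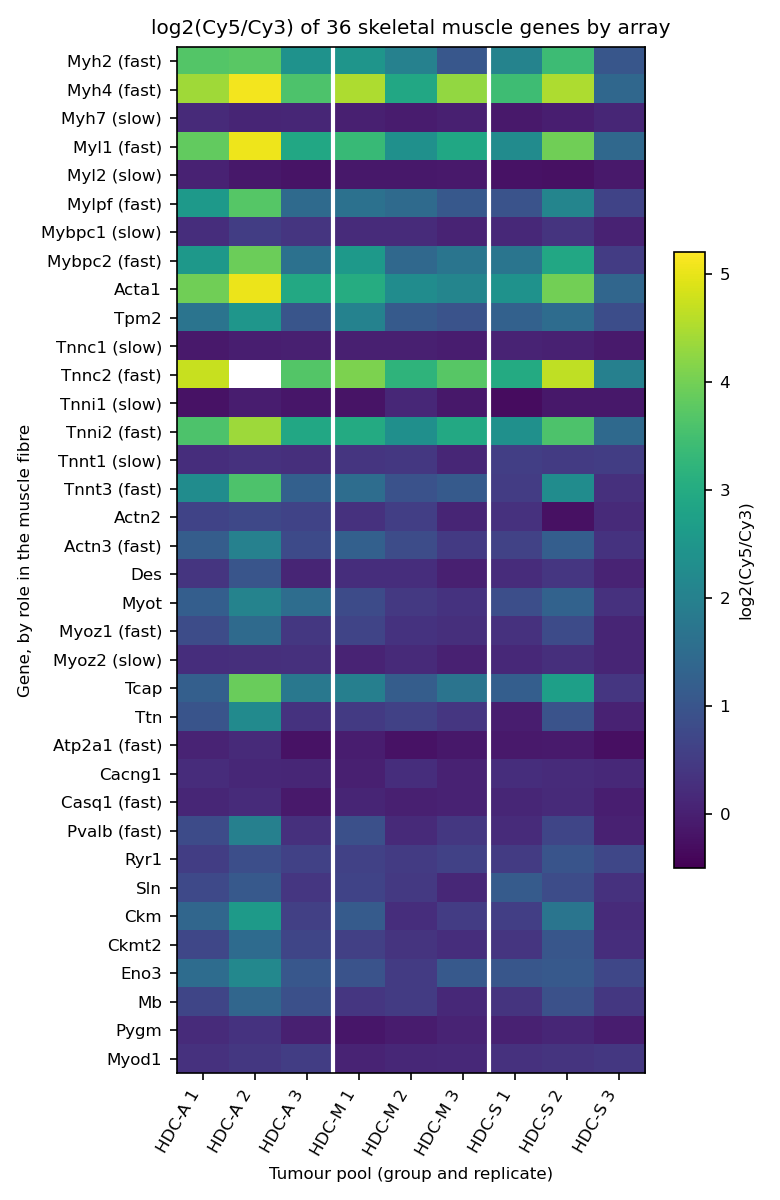
Heat map of log2(Cy5/Cy3) for the 36 kept genes (rows, ordered by role, fast and slow forms marked) on the 9 arrays (columns, white lines between groups, colour scale in log2 units). Most fast thick and thin filament genes are bright and most slow forms dark, HDC-A replicate 2 is the brightest column, and the white cell is Tnnc2 on HDC-A replicate 2, where the spot was marked as an outlier and left out.

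**Figure D2:**
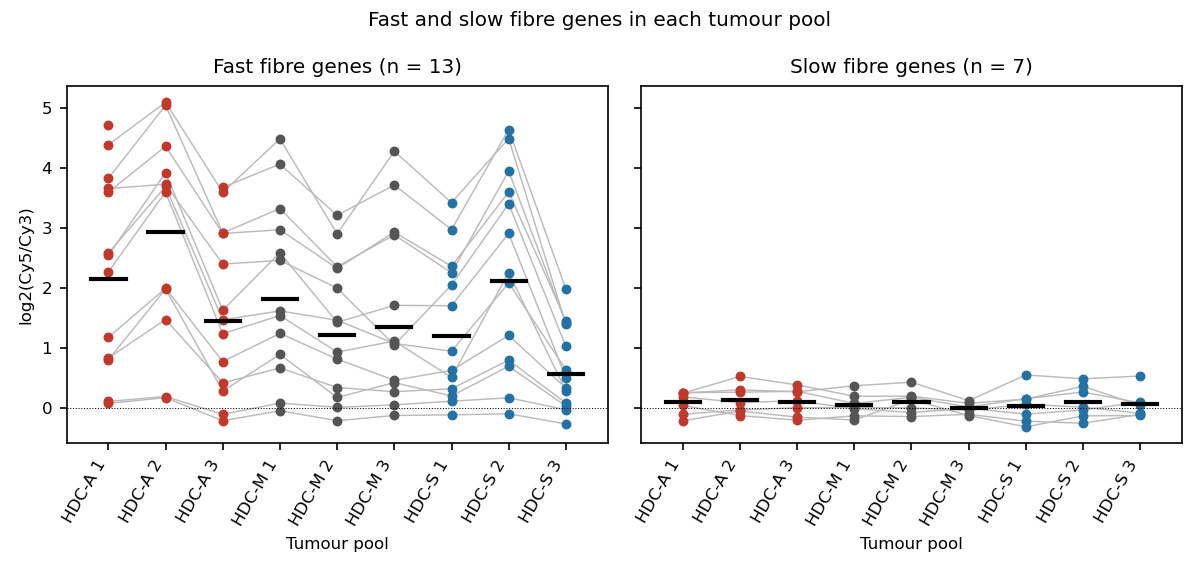
Points are the log2(Cy5/Cy3) of 13 fast fibre genes (left) and 7 slow fibre genes (right) in each tumour pool, grey lines join a gene across arrays, and black bars are means over genes with a value on all arrays. The fast means run from 0.57 to 2.94 and rise and fall between pools of one group, whereas the slow means stay between -0.01 and 0.14.

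Replicate pools of 1 group differed more for these genes than for the typical probe. The SD between pools of a group had a median of 0.379 log2 units over the members and 0.795 over the fast members, against 0.0983 over all kept probes and 0.0864 over the slow members. Myh4 (SD 1.12), Tcap (1.09), Mybpc2 (1.03), Myl1 (1.01) and Acta1 (1.01) varied most. The members also moved with each other over the 9 arrays. As a description, the Pearson correlation of a member with the mean of the other members had a median of 0.96 over the fast genes (0.70 to 0.98) and of 0.07 over the slow genes (-0.30 to 0.86). Acta1 (0.99), Myl1 (0.98) and Myoz1 (0.98) followed the other members most closely, whereas Tnnt1 (-0.30), Cacng1 (-0.05) and Tnnc1 (-0.03) did not follow them. These arrays share 1 reference, and a gene near the floor has little range in which to correlate.

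Because most members moved together, the RefSeq windows of 250 bases before their starts (GRCm38.p6) were searched for motifs of muscle promoters. Windows were found for 27 of the 36 kept members, 33 windows in all. The E-box CANNTG, the site of MyoD family factors, occurred on either strand in 90.91% of them against 66.22% of 32851 windows of all genes. Its form CAGCTG, counted also within CANNTG, occurred in 54.55% against 13%. A MEF2 site, bound by MEF2 factors, occurred in 4 of the 33 windows, 12.12% against 2.919%. A CArG box, bound by serum response factor, occurred in 2, or 6.061% against 1.467%. Some genes have several windows, and those of Mb, Myh7 and Tnni1 overlap in part, so the same site can be counted again. CAGCTG was in 50% of the 10 fast windows and in 50% of the 10 slow windows, so this motif did not separate them. A match of letters is a description and not a measured binding site. The windows of 4 bright members, Acta1, Myh4, Myl1 and Tnnc2, are shown beside that of a slow form near the floor, Tnnc1, each 5′ to 3′ on the gene's strand and ending at the base before the start, with E-box, MEF2 and CArG matches in capitals.
Acta1 (chr8:123894776-123895025, - strand): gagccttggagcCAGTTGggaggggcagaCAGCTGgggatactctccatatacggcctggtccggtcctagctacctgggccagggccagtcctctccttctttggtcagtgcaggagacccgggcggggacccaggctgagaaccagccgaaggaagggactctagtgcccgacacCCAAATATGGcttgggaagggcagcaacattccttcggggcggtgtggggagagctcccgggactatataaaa
Myh4 (chr11:67237562-67237811, + strand): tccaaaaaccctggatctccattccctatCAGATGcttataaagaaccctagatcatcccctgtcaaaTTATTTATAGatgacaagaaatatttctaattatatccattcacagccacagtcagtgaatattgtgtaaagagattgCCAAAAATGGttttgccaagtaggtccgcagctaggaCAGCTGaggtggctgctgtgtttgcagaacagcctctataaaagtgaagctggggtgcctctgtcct
Myl1 (chr1:66945057-66945306, - strand): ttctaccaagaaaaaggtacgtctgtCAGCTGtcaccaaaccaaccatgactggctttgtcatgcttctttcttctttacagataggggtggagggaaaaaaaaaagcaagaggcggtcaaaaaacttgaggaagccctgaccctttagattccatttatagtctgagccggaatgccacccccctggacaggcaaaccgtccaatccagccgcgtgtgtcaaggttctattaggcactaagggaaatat
Tnnc2 (chr2:164779735-164779984, - strand): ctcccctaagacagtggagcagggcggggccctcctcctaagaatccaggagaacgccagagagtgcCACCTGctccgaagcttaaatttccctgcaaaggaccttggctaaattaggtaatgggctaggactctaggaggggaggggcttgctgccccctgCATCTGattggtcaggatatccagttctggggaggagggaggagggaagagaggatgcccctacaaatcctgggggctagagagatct
Tnnc1 (chr14:31208062-31208311, + strand): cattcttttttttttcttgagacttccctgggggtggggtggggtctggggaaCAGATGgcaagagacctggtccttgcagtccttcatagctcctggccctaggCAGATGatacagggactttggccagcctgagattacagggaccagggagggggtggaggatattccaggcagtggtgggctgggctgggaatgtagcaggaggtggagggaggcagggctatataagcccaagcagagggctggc
Acta1 and Myh4 hold a CArG match as well as E-boxes, Myh4 alone among the 5 holds a MEF2 match, and Myl1 and Tnnc2 hold only E-boxes. Tnnc1, with values near 0, holds a pair of E-boxes too.

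The thick filament is built of myosin heavy and light chains and the proteins that bind them. Myh4, the fast IIb myosin heavy chain, read 4.39, 5.10 and 3.60 in HDC-A, 4.49, 2.91 and 4.29 in HDC-M and 3.43, 4.50 and 1.40 in HDC-S. All pools but HDC-S replicate 3 lay at 2.91 or above, and the groups overlapped. HDC-A exceeded HDC-M by 0.47 (SE 0.74; limma adjusted p = 0.821), and this turned to -1.02 when arrays were scaled to 1 spread. HDC-S was below HDC-M by a log2 difference of -0.79 (adjusted p = 0.687). Myh2, the fast IIa heavy chain, read 3.66, 3.73 and 2.40 in HDC-A, 2.46, 2.00 and 1.05 in HDC-M and 2.05, 3.41 and 1.03 in HDC-S. HDC-A replicates 1 and 2 were the highest pools, but replicate 3 fell below HDC-M replicate 1. The difference of HDC-A from HDC-M was 1.43 (SE 0.60), 2.69-fold, with an adjusted p of 0.291. The other kept Myh2 probes differed by 1.29 and 0.32, with HDC-A means of 2.64 and 0.42, so they do not give 1 level.

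The fast light chains followed the heavy chains. Myl1, the fast essential light chain, read 3.83, 5.05 and 2.92 in HDC-A, 3.33, 2.36 and 2.89 in HDC-M and 2.26, 3.96 and 1.42 in HDC-S. Its difference between HDC-S and HDC-A, -1.39 (SE 0.66; adjusted p = 0.292), was the largest of any member in that comparison, although HDC-S replicate 2 lay above the other HDC-A pools. Mylpf, the fast regulatory light chain, read 2.59, 3.70 and 1.47 in HDC-A, 1.62, 1.47 and 1.08 in HDC-M and 0.95, 2.09 and 0.64 in HDC-S. HDC-A exceeded HDC-M by 1.20 (SE 0.52; adjusted p = 0.313), and the lowest HDC-A pool was within the HDC-M range. Mybpc2, the fast myosin binding protein C, read 2.55, 3.93 and 1.63 in HDC-A, 2.59, 1.43 and 1.71 in HDC-M and 1.71, 2.92 and 0.51 in HDC-S, with the 3 groups overlapping.

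Slow thick filament genes read at 0.53 or below on all arrays. Myh7, the slow and cardiac heavy chain, read 0.19, 0.09 and 0.12 in HDC-A, -0.01, -0.07 and -0.00 in HDC-M and -0.10, -0.03 and 0.10 in HDC-S. Its HDC-A pools lay above all HDC-M pools by 0.16 (SE 0.07; adjusted p = 0.272), a small step at the floor of the array. Myl2, the slow regulatory light chain, read 0.04, -0.13 and -0.20 in HDC-A and -0.13, -0.14 and -0.10 in HDC-M. Mybpc1, the slow myosin binding protein C, read 0.25, 0.53 and 0.39 in HDC-A, 0.20, 0.20 and 0.08 in HDC-M and 0.15, 0.36 and 0.04 in HDC-S. HDC-A lay above HDC-M without overlap (0.23, SE 0.10; adjusted p = 0.300), and of the slow genes Mybpc1 tracked the other members best (r = 0.86 over 9 arrays).

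Among thin filament genes, Acta1, skeletal muscle actin, read 3.96, 5.03 and 2.94 in HDC-A, 3.02, 2.27 and 2.10 in HDC-M and 2.42, 3.98 and 1.39 in HDC-S. The HDC-A pools were high apart from replicate 3, which lay below HDC-M replicate 1. HDC-A exceeded HDC-M by 1.51 (SE 0.66), 2.85-fold, the largest difference of any member in that comparison, with an adjusted p of 0.312 and an exact two-sided permutation p of 0.2. Tpm2, a tropomyosin of the thin filament, read 1.69, 2.49 and 1.00 in HDC-A, 2.02, 1.12 and 0.95 in HDC-M and 1.28, 1.52 and 0.84 in HDC-S, overlapping throughout.

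Each of the troponin subunits has a fast and a slow form, so the fibre types could be set side by side. The fast calcium-binding subunit Tnnc2 read 4.73 and 3.68 in HDC-A replicates 1 and 3, 4.07, 3.22 and 3.72 in HDC-M and 2.98, 4.65 and 1.99 in HDC-S. Its spot on HDC-A replicate 2 was marked as an outlier, so its HDC-A value rests on 2 pools. The slow form Tnnc1 read between -0.10 and 0.06 on all arrays, with means of -0.04 ± 0.06 for HDC-A, -0.01 ± 0.02 for HDC-M and -0.00 ± 0.08 for HDC-S (SD, n = 3). The fast inhibitory subunit Tnni2 read 3.60, 4.37 and 2.91 in HDC-A, 2.98, 2.33 and 2.94 in HDC-M and 2.37, 3.61 and 1.46 in HDC-S. Its slow partner Tnni1 read -0.21, -0.05 and -0.15 in HDC-A, -0.20, 0.14 and -0.12 in HDC-M and -0.31, -0.13 and -0.12 in HDC-S. Both fast forms were clearly present in every pool with a value. Both slow forms read near the floor, although they were marked well above background on 6 (Tnnc1) and 7 (Tnni1) arrays.

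Tnnt3, the fast tropomyosin-binding subunit, read 2.27, 3.61 and 1.24 in HDC-A, 1.54, 0.93 and 1.12 in HDC-M and 0.51, 2.26 and 0.29 in HDC-S. HDC-A exceeded HDC-M by 1.17 (SE 0.62; adjusted p = 0.415), with overlap. Tnnt1, the slow form, read 0.25, 0.30 and 0.27 in HDC-A, 0.37, 0.43 and 0.12 in HDC-M and 0.55, 0.49 and 0.53 in HDC-S. For this subunit the values of the fast and slow forms overlapped. Tnnt1 was the only member whose HDC-S pools all lay above all HDC-A pools: 0.25 higher (SE 0.08; 95% interval 0.07 to 0.43; adjusted p = 0.112). That difference passed with no background correction (adjusted p = 0.0430) and without HDC-M replicate 3, a pool outside this comparison (adjusted p = 0.0361). In 22 of 24 alternatives it did not pass, with adjusted p up to 0.801.

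The Z-disc anchors the thin filaments. Actn3, the fast alpha-actinin, read 1.18, 2.00 and 0.78 in HDC-A, 1.25, 0.82 and 0.46 in HDC-M and 0.63, 1.21 and 0.33 in HDC-S. Actn2, the alpha-actinin of all striated muscle, read 0.65, 0.73 and 0.64 in HDC-A, 0.31, 0.56 and 0.09 in HDC-M and 0.32, -0.24 and 0.17 in HDC-S. Unlike most members, Actn2 was lowest in HDC-S replicate 2 and had HDC-A pools close together. Its HDC-S pools lay below all HDC-A pools, by a log2 difference of -0.59 (SE 0.15; adjusted p = 0.0557). It passed with the filter requiring all 9 arrays (adjusted p = 0.0486) and without HDC-M replicate 3, a pool outside this comparison (adjusted p = 0.0471). In 22 of 24 alternatives it did not pass, with adjusted p up to 0.698.

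Myot, myotilin of the Z-disc, read 1.21, 2.06 and 1.53 in HDC-A, 0.81, 0.46 and 0.34 in HDC-M and 0.87, 1.30 and 0.32 in HDC-S. Every HDC-A pool lay above every HDC-M pool, by 1.06 (SE 0.27), 2.09-fold, with an adjusted p of 0.0859. The Myot probe carries the gene by a synonym only, and its Cy3 signal was 0.67 to 0.95 times the negative control median. Tcap, which caps titin at the Z-disc, read 1.23, 3.91 and 1.79 in HDC-A, 1.96, 1.17 and 1.70 in HDC-M and 1.20, 2.73 and 0.40 in HDC-S. HDC-A replicate 2 alone lifted its group: HDC-A exceeded HDC-M by 0.70 (SE 0.71; adjusted p = 0.708), which turned to -0.10 without that pool.

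Ttn, titin, the spring between Z-disc and thick filament, read 0.98, 2.23 and 0.33 in HDC-A, 0.46, 0.60 and 0.41 in HDC-M and -0.03, 0.96 and 0.04 in HDC-S. Its 6 further kept probes disagree with this one: their differences between HDC-A and HDC-M ran from -0.03 to 0.42, and 4 had group means between -0.28 and 0.06. Des, the intermediate filament desmin, reached 1.01 in HDC-A replicate 2 and lay between -0.00 and 0.40 in all other pools. Myoz1, the fast form of the Z-disc protein calsarcin, read 0.84, 1.48 and 0.42 in HDC-A, 0.67, 0.34 and 0.27 in HDC-M and 0.32, 0.80 and 0.08 in HDC-S. A second kept Myoz1 probe reached 0.92 in HDC-A replicate 2 and lay between -0.15 and 0.13 in all other pools, so the probes disagree on its level. The slow calsarcin Myoz2 read 0.26, 0.27 and 0.28 in HDC-A, 0.08, 0.18 and 0.02 in HDC-M and 0.16, 0.27 and 0.09 in HDC-S. The 3 HDC-A pools agreed closely for Myoz2 and lay above HDC-M by 0.18 (SE 0.07; adjusted p = 0.239).

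Of the 6 calcium-handling genes, Casq1 and Cacng1 were near the floor and the other 4 were well above background on all 9 arrays. Atp2a1, the fast calcium pump, read 0.08, 0.17 and -0.21 in HDC-A, -0.04, -0.21 and -0.12 in HDC-M and -0.11, -0.10 and -0.27 in HDC-S. Its second probe read 0.88, 1.56 and 0.35 in HDC-A, 0.80, 0.30 and 0.26 in HDC-M and 0.40, 0.91 and 0.13 in HDC-S, so the 2 probes of this gene disagree on its level. Casq1, the calcium store protein of fast fibres, stayed between -0.11 and 0.19. Pvalb, parvalbumin, the calcium buffer of fast fibres, read 0.80, 1.99 and 0.28 in HDC-A, 0.89, 0.18 and 0.42 in HDC-M and 0.20, 0.70 and 0.03 in HDC-S.

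Ryr1, the calcium release channel, lay between 0.48 and 0.98 on all arrays, and Cacng1, a subunit of its voltage sensor, between 0.01 and 0.25. The Ryr1 probe carries the gene by a synonym only; 2 further probes peaked in HDC-A replicate 2 at 1.31 and 1.37, whereas this one peaked in HDC-S replicate 2. Sln, sarcolipin, which inhibits the calcium pump, read 0.77, 1.08 and 0.39 in HDC-A, 0.64, 0.44 and 0.13 in HDC-M and 1.15, 0.83 and 0.32 in HDC-S. HDC-S exceeded HDC-M by 0.37 (SE 0.23; adjusted p = 0.516), the largest positive difference of a member in that comparison.

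Genes of energy supply and oxygen storage were all higher on average in HDC-A than in HDC-M, 5 of 5, with a median of 0.64. Mb, myoglobin, which stores oxygen, read 0.68, 1.39 and 0.89 in HDC-A, 0.40, 0.49 and 0.15 in HDC-M and 0.35, 0.91 and 0.42 in HDC-S. All HDC-A pools lay above all HDC-M pools, by 0.64 (SE 0.20; adjusted p = 0.152). Ckm, the cytosolic creatine kinase of muscle, read 1.38, 2.61 and 0.57 in HDC-A, 1.14, 0.25 and 0.51 in HDC-M and 0.56, 1.72 and 0.19 in HDC-S, with overlap. Its mitochondrial partner Ckmt2 read 0.72, 1.49 and 0.69 in HDC-A against 0.59, 0.36 and 0.25 in HDC-M, without overlap (0.57, SE 0.25; adjusted p = 0.312). Eno3 exceeded HDC-M by 0.73 in HDC-A (SE 0.26; adjusted p = 0.205), and Pygm, the glycogen phosphorylase of muscle, by 0.23 (SE 0.10; adjusted p = 0.288), both with overlapping pools.

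Myod1, a transcription factor that commits cells to the muscle lineage, was low but even between pools: 0.32, 0.42 and 0.52 in HDC-A, 0.07, 0.13 and 0.16 in HDC-M and 0.31, 0.35 and 0.43 in HDC-S. Pools of HDC-A and of HDC-S all lay above those of HDC-M. The difference was 0.30 for HDC-A (SE 0.07; adjusted p = 0.0668) and 0.25 for HDC-S (SE 0.07; adjusted p = 0.144). Its correlation with the mean of the other members was only 0.16, and its probe was well above background on 4 arrays, so the values lie near the floor.

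Compared over all members, pools of HDC-A had a greater mean than those of HDC-M for 33 of the 36, or 91.7%, against 51.9% of all kept probes. The median difference was 0.47, against 0.01 over all probes. None of the 36 passed at a limma adjusted p below 0.05 against 1.44% of all kept probes. At an unadjusted p below 0.05 there were 13, or 36.1%, against 15.5% of all kept probes. Pools of HDC-A lay wholly above those of HDC-M for 8 members, 22.2%, against 10.2% of all probes. Of these, Actn2, Myot, Mb and Ckmt2 were well above background on all 9 arrays. Mybpc1 and Myoz2 were so on 3 HDC-A arrays, 2 HDC-M arrays and 1 HDC-S array. Myh7 was so on 3 HDC-A arrays and Myod1 on 2, each with 1 array per other group. Myh7 and Myod1 thus met the filter of 3 arrays only through HDC-A, so counting them as higher there is not independent of the filter. None of the 8 was in the fast list, whose 13 genes all had the higher mean in HDC-A (median 0.54), although 5 of them (Myh4, Myl1, Tnnc2, Tnni2 and Casq1) turned lower after arrays were scaled to 1 spread. The slow list had a median of 0.03, which is the difference of Myl2 itself, with 4 of 7 higher. Myh7 and Myl2, both counted as higher, would not have met the filter without their HDC-A arrays. This count and median are therefore not independent of the filter. Without HDC-A replicate 2 the median over all members was 0.18, and after scaling arrays to 1 spread it was 0.18 as well, with 7 members turning sign (Tpm2 and Ryr1 beside the 5 fast genes).

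Between HDC-S and HDC-M, the members lay about evenly on both sides of 0. The mean was higher in HDC-S for 19 of 36, or 52.8%, against 53.2% of all probes, and the median difference was 0.01. None passed, against 0.681% of all probes, and 2 had an unadjusted p below 0.05, or 5.56% against 14.5%. Pools did not overlap for 2 members, Tnnt1 and Myod1, both higher in HDC-S, 5.56% against 11.9% of all probes. Myod1 was well above background on only 1 array of each of these groups. No member lay wholly lower, against 10.4%. In the fast list 11 of 13 were lower in HDC-S, with a median of -0.18 that turned to 0.13 without HDC-S replicate 3. That single pool was the lowest of all 9 for 12 of the 13 fast genes.

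Against HDC-A, the mean was higher in HDC-S for 6 of 36 members, 16.7%, against 51.4% of all probes, and lower for 30, with a median of -0.51 against 0.00 over all probes. None passed, against 5.26% of all kept probes (2.84% higher and 2.42% lower in HDC-S), and 6 had an unadjusted p below 0.05, or 16.7% against 19.4%. The pools did not overlap for Actn2 (lower, 2.78% of members against 11.1% of probes) and Tnnt1 (higher, 2.78% against 13.3%). For the fast list the median was -1.0, with 12 of 13 lower, and for the slow list -0.10. Without both HDC-A replicate 2 and HDC-S replicate 3 the median over all members was -0.06 and that of the fast list -0.09. Those arrays were picked as the highest and the lowest, so a smaller difference was bound to follow.

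Among same-numbered pools of HDC-A and HDC-S, deviations from the group means correlated clearly for replicate 2 alone (0.548). A paired fit gave another result for this comparison. Within the pairs the mean over the fast genes was lower in HDC-S each time: 1.20 against 2.16, 2.13 against 2.94 and 0.57 against 1.45. With these groups alone and the replicate number as a block, a fit added after seeing the data, 12 of the 36 members (33.3%) passed, all lower in HDC-S, against 4.02% of all kept probes (2.05% lower). They were the fast genes Actn3, Mybpc2, Myl1, Mylpf, Myoz1, Tnnc2, Tnni2 and Tnnt3, and Acta1, Ckm, Ckmt2 and Mb. Fast members moved with the other members over the arrays (median correlation 0.96), so these calls are not independent of each other. Myl1 fell by 1.39 and Acta1 by 1.38 log2 units (limma adjusted p = 0.0152 for each), and the Tnnc2 value rests on 2 pairs. With all 9 arrays and the same block no member passed. The labels do not say that a number marks a shared source, and 2 unlike-numbered pairs of HDC-A and HDC-S (replicates 1 and 3, at 0.219 and 0.196) correlated more than the same-numbered pairs 1 and 3 (0.107 and 0.135). The 3 comparisons use the same 9 arrays, and each pair of them shares a group, so their values are not independent of each other.

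**Figure D3:**
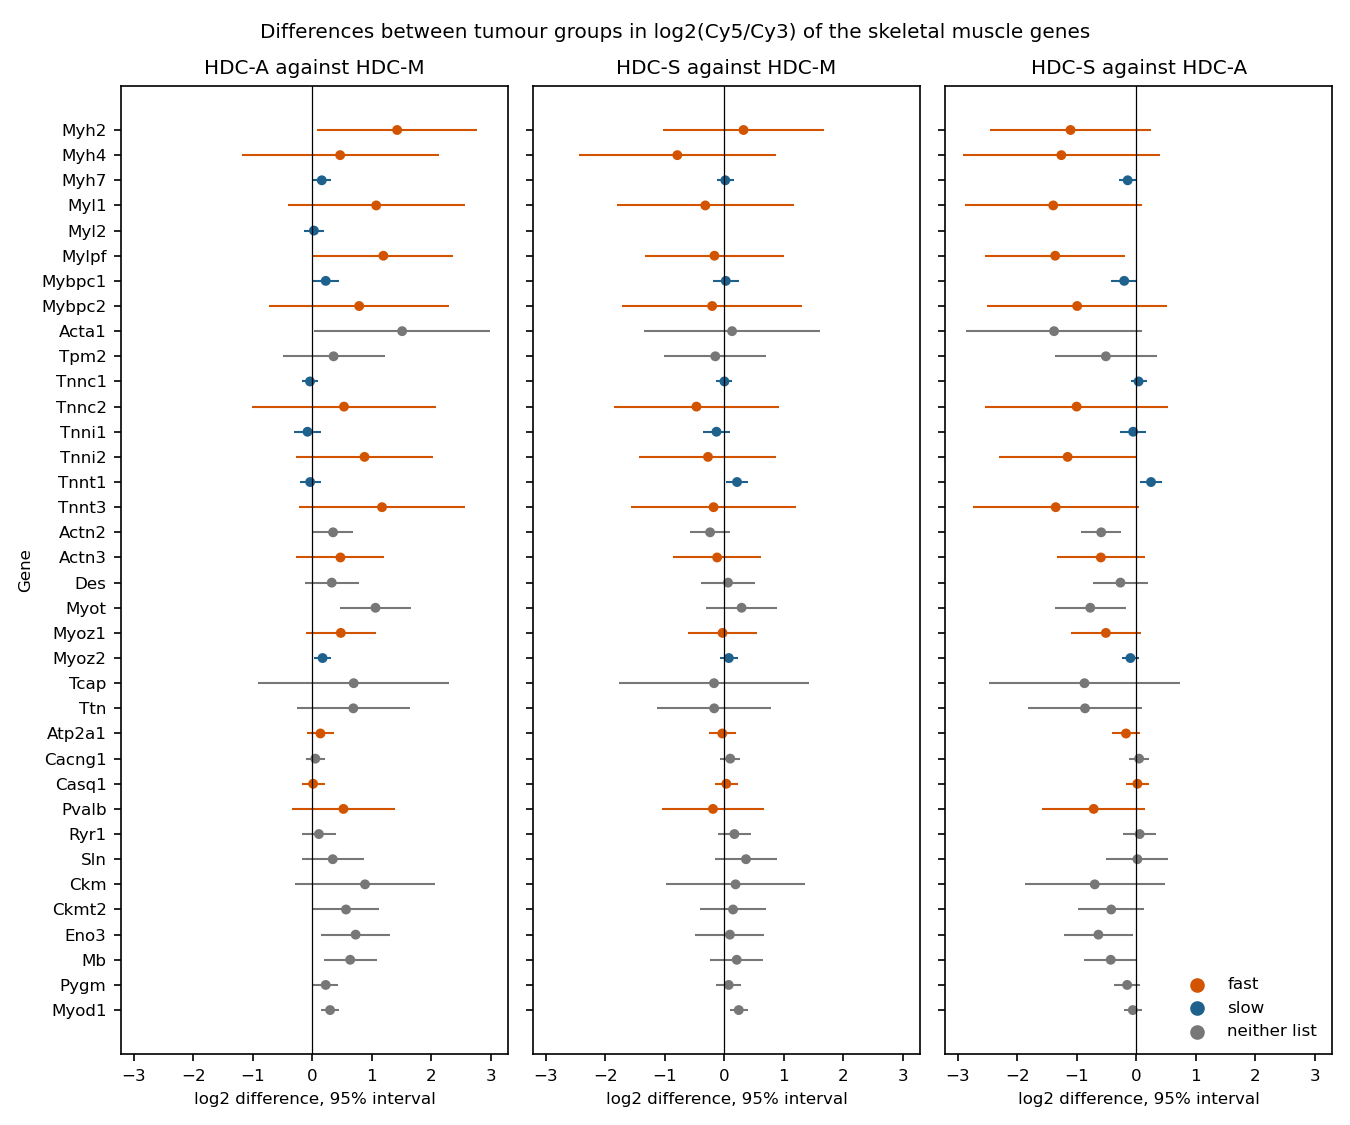
Difference between tumour groups in log2(Cy5/Cy3) for each gene (points, coloured by fast list, slow list or neither) with its 95% interval from the limma fit, in 3 panels for the 3 comparisons; Myl2 is left out of the HDC-S panels because it was not above background there. Fast genes have wide intervals that mostly cross 0. Before adjustment, 13 members have intervals clear of 0 in HDC-A against HDC-M, among them Myot, Mb, Myod1 and the fast genes Myh2 and Mylpf. In HDC-S against HDC-A 6 do, among them Actn2, Tnnt1 and the fast genes Mylpf and Tnni2.

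The second-day pool was the lowest of its group for the fast mean in HDC-A and HDC-S. In HDC-M it lay, at 1.35, between the first-day pools at 1.82 and 1.21. On the first day the mean over the fast genes was 2.55 over the HDC-A pools, 1.52 over HDC-M and 1.66 over HDC-S (2 pools each), and on the second day 1.45, 1.35 and 0.57 (1 pool each). Within the first day the median member difference of HDC-A from HDC-M was 0.57, with 33 of 36 higher. Within the second it was 0.08, with 24 of 36 higher. HDC-S was below HDC-A on both days, by medians of -0.57 and -0.34. The part of the scan day in these results cannot be told from that of the single pools on the second day.

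Genes outside the member list behaved alike. Of 60 other genes of skeletal muscle, 45 were measured, and 39 had the higher mean in HDC-A than in HDC-M, against 51.9% of all kept probes. Their median difference was 0.20, against 0.01 over all kept probes. None passed, against 1.44% of all kept probes. Fhl1, a LIM-domain protein of muscle, read 4.12, 4.91 and 2.63 in HDC-A, 2.19, 2.69 and 1.57 in HDC-M and 2.01, 3.50 and 1.56 in HDC-S, a difference of HDC-A from HDC-M of 1.73 (SE 0.62; adjusted p = 0.210). Xirp2, an actin-binding repeat protein of muscle, differed by 1.42 (SE 0.41; adjusted p = 0.121) and Apobec2, a muscle-enriched member of the APOBEC family, by 1.24 (SE 0.32; adjusted p = 0.0885). A second kept Xirp2 probe, which did not represent the gene, differed by 0.38 (limma adjusted p = 0.0855), without overlap. Between HDC-S and HDC-A, 41 of the 45 were lower and 4 higher, where 51.4% of all kept probes were higher. Of the 45, 1 passed, against 5.26% of all kept probes (2.42% lower in HDC-S). This was Hspb7, a small heat shock protein of muscle, which fell by 0.25 log2 units (SE 0.06, limma adjusted p = 0.0431). Its second probe did not show this (0.04; adjusted p = 0.842), and the call was kept in 3 of 24 alternatives. The second Xirp2 probe, not among the 45, also passed here, with a difference of -0.43 (limma adjusted p = 0.0322) and no overlap. The Xirp2 probe that was counted did not pass (-1.50, adjusted p = 0.0668). In the paired fit of HDC-A and HDC-S alone, Fhl1 (adjusted p = 0.0248), Xirp2 (0.0385) and Apobec2 (0.0311) passed, lower in HDC-S, and Hspb7 did not (0.0995).

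Of 11 regulators of muscle development, 9 were measured, and 1 passed between HDC-A and HDC-M, where 1.44% of all kept probes did. Mef2c, a factor of muscle and of several blood and vessel lineages, read 1.72, 1.85 and 1.64 in HDC-A, 1.13, 1.01 and 1.03 in HDC-M and 1.34, 1.44 and 1.39 in HDC-S. The 3 groups did not overlap. It rose by 0.68 in HDC-A against HDC-M (SE 0.07; adjusted p = 0.00598) and fell by 0.35 in HDC-S against HDC-A (adjusted p = 0.0251). Its values did not show the swings of the fibre genes between pools of a group. The call between HDC-A and HDC-M was lost after median centring in place of loess (adjusted p = 0.445), after scaling (0.632), in the deposited ratios (0.0657), in the Cy5 channel alone (0.0541) in the first scan day alone (0.0965) and with the groups alone and a replicate block (0.162). Mef2c kept its call against HDC-M without any single array, with adjusted p-values of at most 0.0440. Its call between HDC-S and HDC-A was kept in 12 of 24 alternatives. Among those that lost it were leaving out HDC-A replicate 1 or 2 or any HDC-S replicate (0.0560 to 0.0842), scaling (0.683) and median centring (0.9999).

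**Figure D4:**
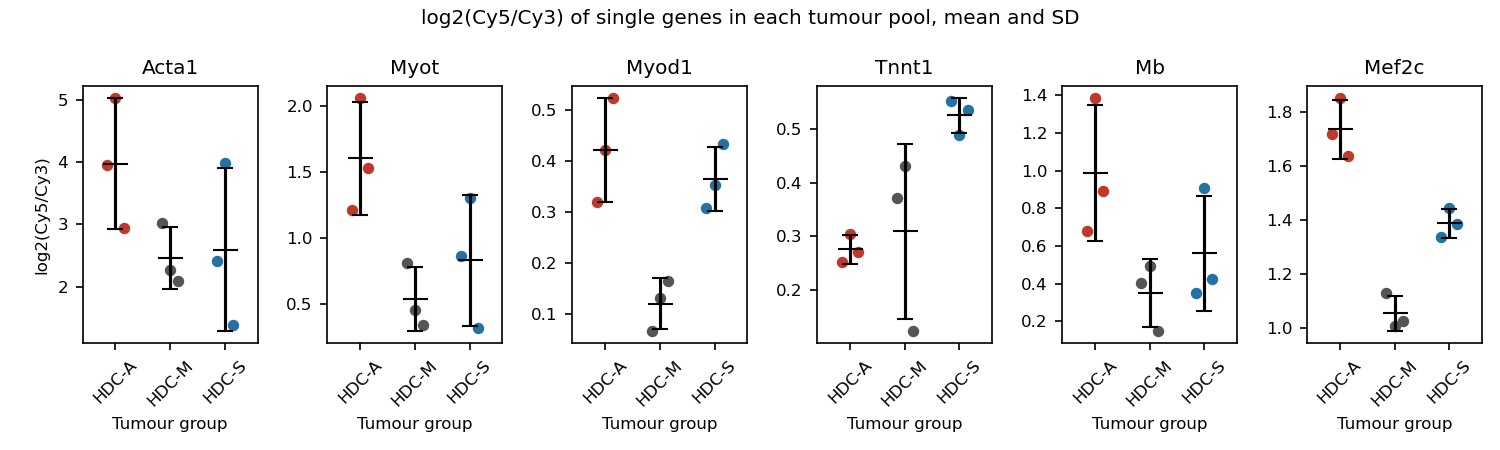
log2(Cy5/Cy3) of Acta1, Myot, Myod1, Tnnt1, Mb and Mef2c in the 3 pools of each group (points), with the mean (dash) and SD (bar, n = 3); each panel has its own scale. Acta1 spreads over several log2 units within HDC-S, whereas the Mef2c pools of HDC-A sit above all those of HDC-M.

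The most similar genes outside the list were found by the Pearson correlation with the mean of the members over the 9 arrays. They were Pde4dip (0.99), Myl3 (0.98), Car3 (0.98), Ank1 (0.98), Synm (0.97), Trim54 (0.97), Parm1 (0.96), Myom2 (0.96), Cox6a2 (0.95) and Pgam2 (0.95). Car3 is the carbonic anhydrase of muscle and fat, Myom2 an M-band protein, Trim54 a muscle ubiquitin ligase and Pgam2 the muscle phosphoglycerate mutase. Myl3 is the essential light chain of slow fibres and heart: this probe read 1.86, 2.62 and 1.12 in HDC-A, 1.22, 0.60 and 0.77 in HDC-M and 0.95, 2.02 and 0.34 in HDC-S. The brighter Myl3 probe stayed between -0.31 and -0.04, so the 2 probes disagree and no level of this slow gene can be given.

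Markers of other cell types were read beside the members. Over 11 cardiac genes the mean was between -0.12 and 0.03 on all arrays, so this list mean did not show the fast pattern. Myl3 entered the list by its flat probe, and its other kept probe reached 2.62 in HDC-A replicate 2. The mean therefore does not speak for each heart gene. HDC-A replicate 2 was also the highest array for the fibroblast list (8 of 8 measured; mean 4.42, against 2.29 to 3.64 elsewhere), the smooth muscle and pericyte list (15 of 15; 0.85), the endothelial list (7 of 7; 1.56), the adipocyte list (9 of 10; 1.24) and the macrophage list (8 of 8; 2.45). HDC-S replicate 3 had the lowest mean for the fibroblast and smooth muscle lists (2.29 and 0.33). The keratinocyte list (10 of 10) peaked in HDC-M replicate 1 at 2.68 and the melanocyte list (7 of 9) in HDC-M replicate 2 at 0.89. The part of fibroblasts or other host cells in the muscle values was not tested.

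**Figure D5:**
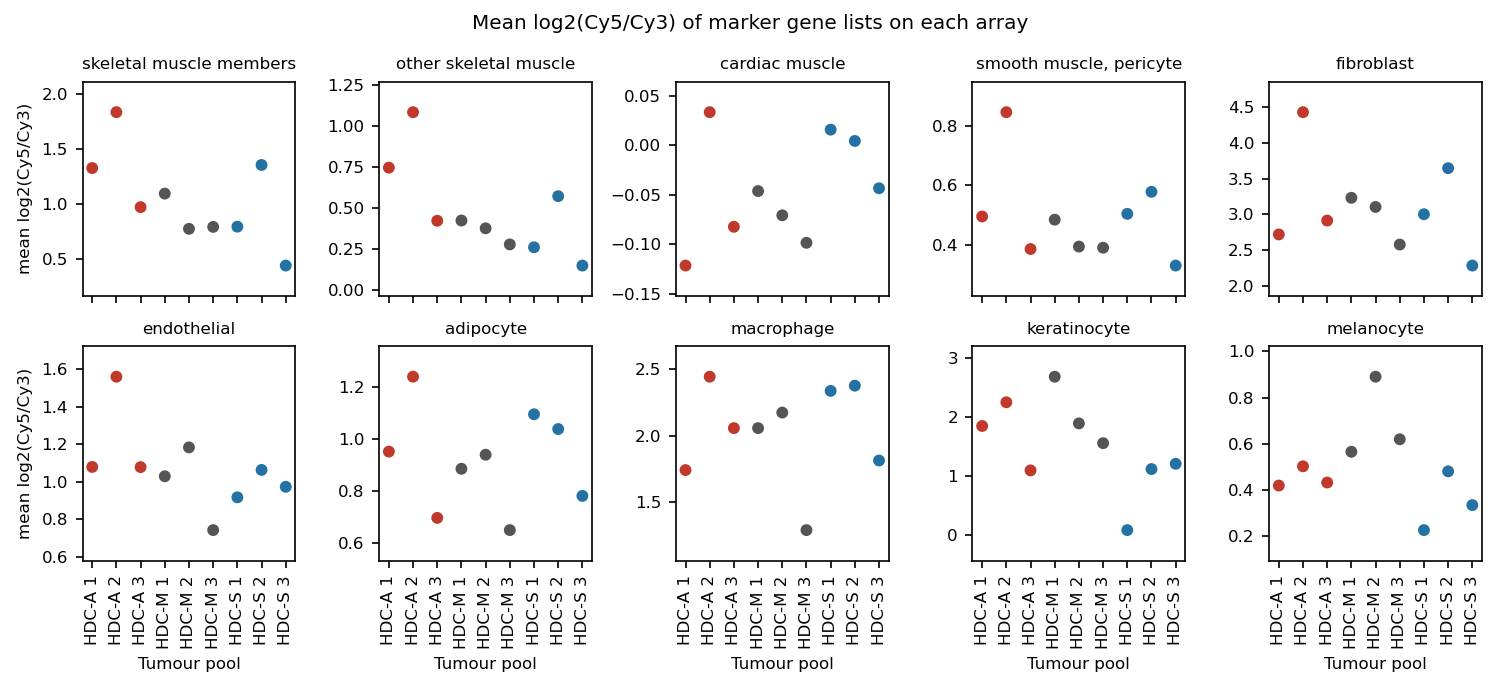
Mean log2(Cy5/Cy3) of each marker list (panels, each with its own scale) on the 9 arrays (points, coloured by group). The means of the skeletal muscle lists peak in HDC-A replicate 2, as do those of the fibroblast, endothelial, adipocyte, macrophage and smooth muscle lists, whereas the cardiac mean stays between -0.12 and 0.03. By the median, the endothelial, adipocyte, macrophage and smooth muscle lists peak in other pools.

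A pair of the missing members could be read through probes that name them only in words. Such a probe for Myh1, the fast IIx heavy chain, read 3.62, 4.55 and 2.78 in HDC-A, 1.78, 2.62 and 1.94 in HDC-M and 1.78, 3.58 and 1.71 in HDC-S. Its HDC-A pools lay above all HDC-M pools, by 1.54 (SE 0.55; adjusted p = 0.210). A second kept Myh1 probe stayed between -0.18 and 0.25, with a difference of 0.05 (adjusted p = 0.872), so the probes disagree. For Neb, nebulin, the thin filament ruler, 2 kept probes differed by 0.31 and 0.53 in the same direction (adjusted p = 0.373 and 0.387). Fast myosin heavy chain genes are near copies of each other, and how far their probes cross-hybridise was not tested.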

How the data were processed

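Tumour pools and the common reference were read on 9 two-colour Agilent arrays with no dye swap. Spot intensities and background intensities were deposited as Agilent Feature Extraction output (version 8.5.1.1, per the file headers). The deposited log10 ratios of Cy5 over Cy3, dye-normalized by that software per the file headers, equal the separate value table (largest difference 0) and served as an alternative. Marks for outlier and well-above-background spots, a further kind of deposited value, were used as filters.

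Here, mean intensities were corrected with normexp (offset 50) and loess in limma 3.58.1 (R 4.3.3). Control spots had weight 0, outlier spots were left out and spots of a probe were averaged. Probes well above background in Cy5 on at least 3 arrays were kept. The Cy3 mark was not used, because 98.1% of negative control spots carried it, against 2.48% in Cy5. All adjusted p-values come from limma (lmFit and eBayes over all 9 arrays, Benjamini-Hochberg over all kept probes, threshold 0.05). A two-sided exact permutation test of 3 against 3 pools cannot go below 0.1. The number of arrays limits the precision. The fit was tested on simulated data. Deviations from the group means correlated at 0.107, 0.548 and 0.135 between same-numbered pools of HDC-A and HDC-S. For HDC-M with either group the correlations were -0.189 to 0.151. Only the pair of HDC-A and HDC-S replicates 2 stood out, and unlike-numbered pairs of these groups reached 0.219. The pairing of HDC-A with HDC-S comes from the data, not the labels.

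The members and all gene lists were chosen with earlier results of these data known. Every kept member was named, with values by array for fast and slow members and those with the largest differences. From the other muscle and regulator lists, genes past the threshold and the 3 with the largest difference were named (1 gene is not reported here), and outside all lists the 10 probes most alike. Alternatives covered background correction, normalization, scaling, the dim-probe filter, the value table, the Cy5 channel alone, probe choice, samples in the fit, blocks, and each pool left out. Keeping outlier spots, leaving out 2 arrays together and a paired fit of only the groups compared were added after seeing the data. Promoter windows come from RefSeq (GRCm38.p6).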

Additional observations from a re-analysis of the deposited data

How the results depend on the processing

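No member passed at a limma adjusted p below 0.05 in HDC-A against HDC-M or in HDC-S against HDC-M under any of the 24 alternatives. In HDC-S against HDC-A, 1 passed with no background correction (Tnnt1), 1 with the filter on all 9 arrays (Actn2), 12 with these groups alone and a replicate block, and 0 to 2 with each pool left out. Of all kept probes, 5.26% passed in the main fit of this comparison and 4.02% with these groups alone and a replicate block. That share was not counted under the other alternatives, so their counts of 0 to 2 are not read as a result about the members. The median over the members stayed between 0.18 and 0.72 in HDC-A against HDC-M and between -0.09 and 0.14 in HDC-S against HDC-M. In HDC-S against HDC-A it ran from -0.68 to -0.16 with each pool left out and was -0.059 without both HDC-A replicate 2 and HDC-S replicate 3, a setting chosen after seeing the data. In the deposited ratios that median was -0.82, and the slow list's median in HDC-A against HDC-M was 0.45, against 0.03. The HDC-A against HDC-M difference of Myh4 reversed to -1.02 after scaling and ran from -0.023 to 0.85 with each pool left out; that of Tcap ran from -0.10 to 1.24 and was -0.10 without both arrays. The HDC-S against HDC-M difference of Myh4 reversed to 0.26 in the first scan day alone and to 0.068 without both arrays, and ran from -1.48 to 0.068 with each pool left out. The cause was not tested. Of the 36 members, 14 changed sign under some alternative in HDC-A against HDC-M, 30 in HDC-S against HDC-M and 10 in HDC-S against HDC-A. With the replicate block over all 9 arrays, 0 members passed in each comparison and the medians were 0.47, 0.01 and -0.51. Fhl1 and Xirp2 then passed in HDC-A against HDC-M (adjusted p = 0.0325 and 0.0470) and in HDC-S against HDC-A (0.0208 and 0.0193), where Hspb7 lost its call (0.0766). Xirp2 also passed there with the scan day block (0.0407), and Xirp2 (0.0328) and Apobec2 (0.0401) without HDC-A replicate 3. Members near the negative controls, most slow forms among them, limit what a difference there can show.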
